A study of Mus musculus with 2 samples.

Results

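This account covers the probe sets of splicing factor and hnRNP genes on 2 microarrays of mouse CD4+ T cells. Members were all probe sets that the platform annotation pairs with exactly 1 gene symbol starting with Hnrnp, Srsf, Sf3a, Sf3b, Snrp, Prpf or U2af. The rule used symbols and no measured value, and gave 174 of the 45101 probe sets, for 62 of the 18194 genes with such a probe set. The cells came from mice of the DEREG strain, whose Foxp3 promoter drives green fluorescent protein (GFP). After negative selection for CD4+ T cells, flow sorting gave a GFP-positive population, CD4+GFP+FoxP3+ in the labels, and a GFP-negative population, CD4+GFPnegFoxP3neg, with purity stated as above 99%. Both populations carry the transgene, and 1 array was hybridised with RNA of each. Regulatory T cells depend on the transcription factor Foxp3, and the comparison sets them against the other CD4+ T cells of DEREG mice. The sources used here do not say which organ was taken, how old or how many the mice were, or whether they were treated.

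Most introns are removed by the spliceosome, which is built from small nuclear ribonucleoproteins (snRNPs). U1 marks the start of an intron, U2AF and the U2 snRNP with its SF3A and SF3B subcomplexes mark its end, and the U4/U6.U5 tri-snRNP, which holds several PRPF proteins, then joins. Sm proteins form the ring that most of these snRNPs share. SR proteins, which carry arginine- and serine-rich tails, mostly favour the use of nearby exons, and many hnRNP proteins oppose it. In T cells, splicing of Ptprc, the gene of the surface phosphatase CD45, changes with activation and depends on Hnrnpll.

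Each value is a deposited signal, a linear measure of how brightly the probes of a probe set lit up, and each difference is the log2 signal in GFP-positive cells less that in GFP-negative cells. Signals under a floor of 61.72, taken from genes restricted to other tissues, were raised to the floor, and such a difference is a lower bound. A probe set counted as measured where the mean of its log2 signals lay above the floor. With 1 array a group there is no replicate error and no test was possible, so higher and lower below describe these arrays only. The precision is limited by their number. The only scatter that could be measured was that between probe sets of the same gene, which had a standard deviation of 0.40 log2 over 8173 probe sets of 3208 genes and holds no variation between mice, sorts or hybridisations.

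The labels were checked with Foxp3, whose probe set gave 504 with RNA of GFP-positive and 173 with RNA of GFP-negative cells, 2.91-fold apart. The signal with GFP-negative RNA was thus above the floor, although the label of that population reads FoxP3neg, and the cause was not tested. All 4 T cell markers with a probe set lay above the floor on both arrays, and all 5 regulatory T cell markers did too. The median difference was −0.42 log2 for the T cell markers and 0.98 for the regulatory T cell markers. Of the 6 B cell markers with a probe set, 3 lay above the floor on each array, and Cd79a, Ms4a1 and Pax5 were below it on both. The list's summed signal was 2291 with GFP-positive and 4576.5 with GFP-negative RNA. The summed signals of myeloid markers were 303 and 221, those of CD8 T and NK cell markers 182 and 238, and those of erythroid and platelet markers 42.7 and 134, GFP-positive first. The ratio of 3′ to 5′ probe signal, a measure of RNA integrity and of labelling that grows as either declines, was 5.30 and 3.57 for Actb and 9.27 and 6.24 for Gapdh, GFP-positive first. The part of these differences in the results below was not tested. A lower signal can come from fewer cells of a type or from less RNA per cell, which cannot be told apart in bulk RNA.

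Splicing factor genes were widely expressed in both populations and differed little between them. Of the 174 probe sets, 143 (82.2%) were measured, against 41.6% of all probe sets with 1 symbol. Signals were above the floor on both arrays for 135 probe sets, with GFP-positive RNA only for 8, with GFP-negative RNA only for 6 and on neither for 25. Of all 45101 probe sets, 18956 were above the floor with GFP-positive and 17690 with GFP-negative RNA. The share above it on 1 array only was not computed over all, so these counts do not set members apart. Among the 143 measured probe sets 77 were higher and 66 lower in GFP-positive cells, with a median of 0.04 log2, while 48.7% of all 14535 measured probe sets were higher, with a median of −0.01. A difference of 2-fold or more was seen in 4 members, probe sets of Hnrnpu, Hnrnpk and Srsf10 (2), all higher in GFP-positive cells, and in 0 that were lower. In 2 of the 4, 1 each of Hnrnpu and Srsf10, the GFP-negative signal was under the floor, so 2 remained among probe sets above the floor on both arrays. With the floor doubled 1 was higher and 0 lower. With no floor, where all 174 probe sets entered, 11 were higher and 11 lower. No share over all probe sets is given at these other floors, so their counts cannot be set against one. At the main floor, 4.3% of all measured probe sets differed by 2-fold or more, 2.35% higher and 1.95% lower. At 1.5-fold, 10 members were higher and 5 lower, against 10.5% and 9.08% of all measured probe sets. In all, 89.5% of the members lay within 1.5-fold, against 80.5% of all. Members had a larger share of bright probe sets, and scatter shrank with brightness in all genes: within 1.5-fold lay 70.5% of all probe sets with mean signals from the floor to 200, 87.4% from 200 to 1000 and 96.0% over 1000. For members these shares were 70.0%, 91.5% and 98.1%, of 30, 59 and 54 probe sets.

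**Figure D1:**
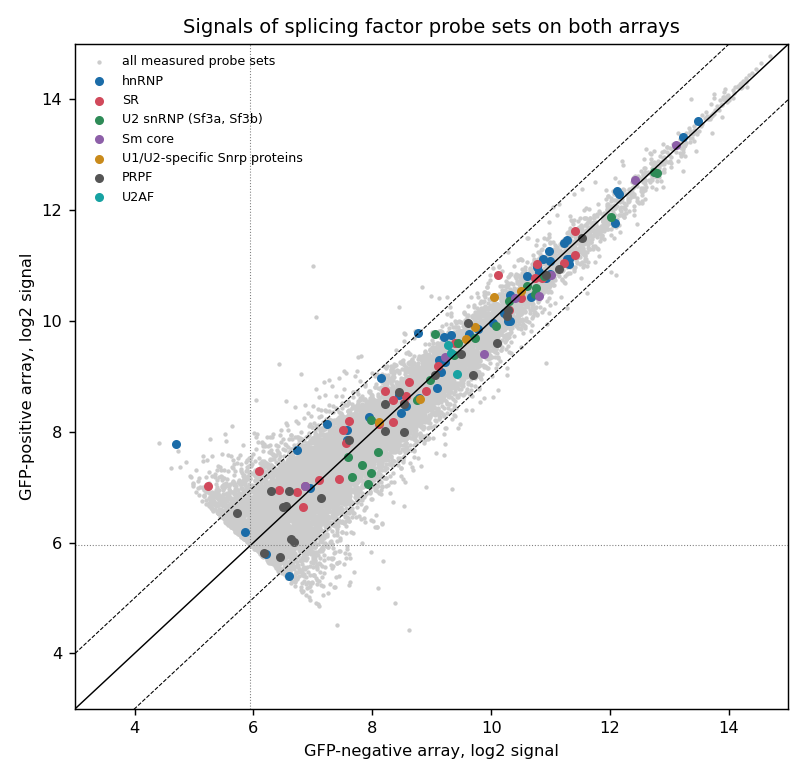
Log2 signal of each measured probe set on the GFP-negative array (horizontal axis) and the GFP-positive array (vertical axis), with members coloured by family over all measured probe sets in grey. The solid line marks equal signals, the dashed lines 2-fold and the dotted lines the floor of 61.72. Signals are drawn as deposited, so the 1 member beyond the lower dashed line is the Hnrnpab probe set with 42.1 and 96.5, which is within 2-fold once raised to the floor. Beyond the upper line lie 4 members.

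The families differed in direction by small amounts. The hnRNP and SR families leaned towards GFP-positive cells, with 30 of 48 and 20 of 30 measured probe sets higher and medians of 0.12 log2 each. The SF3A and SF3B subunits of the U2 snRNP leaned the other way, with 16 of 22 probe sets lower and a median of −0.10, as did the PRPF proteins, with 17 of 26 lower and a median of −0.08. Medians were 0.05 for 8 Sm core probe sets, 0.09 for 6 probe sets of proteins specific to U1 or U2 snRNP and 0.10 for 3 probe sets of U2AF subunits. Averaging the measured probe sets of each gene gave 13 of 18 hnRNP genes higher, 5 of 9 SR genes higher, 9 of 9 U2 snRNP genes lower and 9 of 12 PRPF genes lower, against 4313 of 8859 genes higher overall. After quantile normalization or loess these counts were 11 of 18 hnRNP genes higher, 8 of 9 U2 snRNP genes lower and 7 of 12 PRPF genes lower. With no floor they were 13 of 19, 6 of 9 and 6 of 12, and without probe sets whose suffix is _s_at or _x_at 11 of 18, 6 of 8 and 9 of 12. When each gene was represented by its brightest probe set, 28 of 59 member genes were higher, against 46.6% of all genes, 7 of 9 U2 snRNP genes were lower, and the SR median turned to −0.08.

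**Figure D2:**
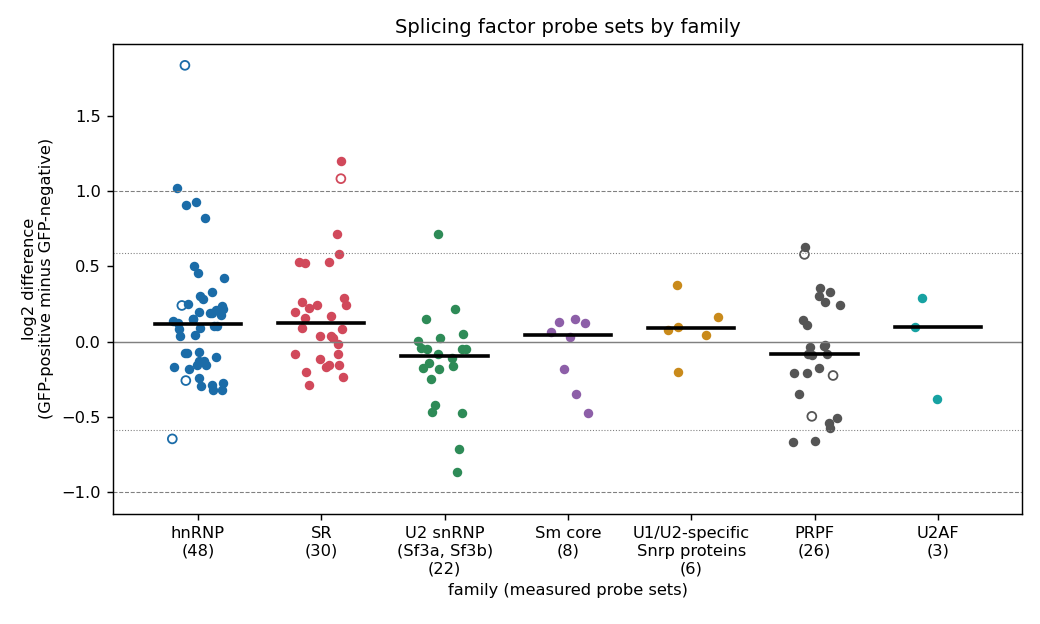
Log2 difference of every measured member probe set (vertical axis, GFP-positive minus GFP-negative) by family (horizontal axis, number of probe sets in brackets), with the family median as a black bar. Open circles have 1 signal under the floor and are lower bounds. Dashed lines mark 2-fold and dotted lines 1.5-fold. The medians run from −0.10 in the U2 snRNP to 0.12 in the hnRNP and SR families, within the spread of each larger family.

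Srsf10, an SR protein that is known to regulate splicing according to its phosphorylation, was higher in GFP-positive cells with every probe set. Its probe set 1418527_a_at gave 427 and 296, GFP-positive first as in all pairs that follow, and 1418526_at gave 262 and 183. Its dimmer probe set 1423982_at gave 157 and 68.5, a 2.29-fold difference, and 1449121_at gave 131 and 37.5, at least 2.12-fold. The 4 differences were 0.52, 0.53, 1.20 and at least 1.08 log2, and all remained positive after quantile normalization and after loess. Srsf1, the founding SR protein and a general splicing activator, had 5 of 6 measured probe sets higher. They ranged from 1812 and 1103 (1.64-fold) in probe set 1434972_x_at (0.72 log2) to 1746 and 1847 in 1453722_s_at (−0.08), its brightest, 1428099_a_at, gave 2085 and 1738 (0.26), and 1428100_at gave 292 and 196 (0.58).

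The other SR genes showed smaller and mixed differences. Srsf3, the smallest SR protein, had 4 of 6 probe sets higher, with 3173 and 2713 for its brightest (0.23 log2), 124 and 85.8 for 1416152_a_at (0.53) and 99.6 and 114 for 1416151_at (−0.20). Srsf2, which binds exonic enhancers, had signals of 429 and 478, 291 and 324, and 282 and 277, so that differences lay from −0.16 to 0.02. Srsf5 was lower, with 2325.5 and 2732.5 (−0.23), and Srsf9 higher, with 480.0 and 392 (0.29), each from 1 probe set. Srsf4 gave −0.11, and Srsf6 and Srsf11 had probe sets in both directions, from −0.17 to 0.24 and from −0.29 to 0.08. The only probe set of Srsf12 was below the floor on both arrays (23.6 and 37.0).

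Among hnRNP proteins, which coat nascent RNA, Hnrnpa2b1 was higher with each of its 4 probe sets. The brightest gave 5206 and 4413.5, and the others 2225 and 1873, 1796 and 1549, and 833 and 587, for differences of 0.24, 0.25, 0.21 and 0.50 log2. Hnrnpdl had 6 of 7 probe sets higher, from 614 and 596.5 (0.04) to 283.5 and 151 in 1456698_s_at (0.90). The brightest gave 12502 and 11475 (0.12), and the lower one 997 and 1051 (−0.08). Hnrnpc, a nuclear hnRNP that packages introns, gave 10270 and 9539 (0.11). Hnrnph1 gave 2462 and 1997 (0.30) in its bright probe set and, in a dim one, 55.7 and 73.8 (at least 1.20-fold lower), while Hnrnph2, Hnrnph3 and Hnrnpm, with 1 probe set each, lay between 0.04 and 0.22. Hnrnpf was split, with 2233 and 2480 (−0.15), 2098 and 2533 (−0.27), 2732 and 2392 (0.19) and 864 and 644 (0.42). Hnrnpab was split as well, with 3 probe sets higher and 3 lower, from 309.5 and 246.5 (0.33) to the bound of −0.64 for 42.1 and 96.5, and Hnrnpd gave 1130 and 1191 (−0.08). Hnrnpul1 was 1.37-fold higher (262 and 191) from its only probe set. Hnrnpa0 (1380 and 1629, −0.24) and both probe sets of Hnrnpul2 (445 and 545, 326 and 356) were lower. Hnrnpa1, a common repressor of exons, had 1018 and 1269 in one probe set (−0.32) and 928 and 874 in another (0.09). Hnrnpll, the regulator of CD45 exons, was close to equal on both arrays, with 1847 and 2022 in 1425255_s_at (−0.13) and 628 and 555 in 1427144_at (0.18), which point in opposite directions. Its relative Hnrnpl could not be measured, since its probe sets gave 52.5 and 25, and 29.2 and 10.2, below the floor on both arrays.

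The largest hnRNP differences were not matched in size by all other probe sets of the same gene. For Hnrnpu, a nuclear scaffold protein, probe set 1434391_at gave 220 and 26.0, and so was higher by at least 3.56-fold. Its other 4 probe sets gave between −0.16 and 0.28 log2, with 2182 and 2031 in the brightest. One of these, 1434390_at, was designed from the same database sequence as the outlying one and gave 232 and 191. For Hnrnpk, a poly(C)-binding protein, 1448176_a_at gave 885 and 437 (2.03-fold higher) and 1454692_x_at 499 and 283 (0.82 log2). The brightest Hnrnpk probe set, 1460547_a_at, gave 3472 and 4337 (−0.32), and 1423684_at gave 2000.5 and 1742.5 (0.20). Hnrnpr was higher in 1437526_x_at, with 203 and 107 (0.92), and slightly lower in its other probe sets above the floor on both arrays, with 544 and 570 and with 393 and 442.

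The subunits of SF3A, which helps the U2 snRNP bind the branch point region of an intron, were lower in all 5 measured probe sets, with a median of −0.25 log2. Sf3a3 gave 1436 and 1705 (−0.25) and 154 and 252 (−0.71), Sf3a1 gave 186 and 192 (−0.05) and 145.5 and 202 (−0.47), and Sf3a2 gave 1546 and 1730.5 (−0.16). These signs did not change after quantile normalization or loess for Sf3a1 and Sf3a3. In SF3B, which clasps the branch point, 11 of 17 probe sets were lower, with a median of −0.05. Sf3b1, its largest subunit, gave 6633.5 and 6841, 3761 and 4152, and 1315 and 1267, all within 0.15 log2 of equality. Sf3b3 gave 824 and 852 and 381 and 433, and the smaller of these differences became positive after quantile normalization (0.02). Sf3b2 had 5 measured probe sets from −0.42 to 0.22 and Sf3b5 2, at −0.17 and 0.02. Sf3b4 had 1 probe set at 667 and 665 and another at 198 and 274 (−0.47). Sf3b6, which contacts the branch point adenosine, was split: the brightest probe set gave 6524 and 7037 (−0.11), 1417055_at 870 and 530 (0.72) and 1436681_x_at 133 and 243 (−0.86).

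To set these members beside their genomic context, promoter sequence from RefSeq was read for the SF3A genes with 2 measured probe sets, both lower, and for the SR and hnRNP genes with all probe sets higher and at least 3 of them above the floor on both arrays. RefSeq promoter entries were found for 55 of the 62 genes, some with several start sites, and the 250 bases before each start were used. Of the 2 starts of Hnrnpa2b1 the first entry is shown, and the genes shown were chosen after their values were seen. The sequences run 5′ to 3′ in the direction of the gene, and capitals mark the ETS motif CCGGAAG or its reverse complement CTTCCGG.
Srsf10 promoter, GRCm38.p6 chr4:135855821-135856070 (+ strand): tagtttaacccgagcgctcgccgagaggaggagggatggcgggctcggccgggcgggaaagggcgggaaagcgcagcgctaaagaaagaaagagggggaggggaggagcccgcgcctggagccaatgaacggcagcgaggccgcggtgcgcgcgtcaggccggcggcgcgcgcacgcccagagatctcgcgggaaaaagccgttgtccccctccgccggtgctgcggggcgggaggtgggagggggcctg
Hnrnpa2b1 promoter, GRCm38.p6 chr6:51469895-51470144 (- strand): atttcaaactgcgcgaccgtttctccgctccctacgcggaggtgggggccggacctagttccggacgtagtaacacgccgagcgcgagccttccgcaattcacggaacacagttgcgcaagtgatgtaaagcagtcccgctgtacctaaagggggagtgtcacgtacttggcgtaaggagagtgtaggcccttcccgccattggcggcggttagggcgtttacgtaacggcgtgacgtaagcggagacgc
Sf3a3 promoter, GRCm38.p6 chr4:124714611-124714860 (+ strand): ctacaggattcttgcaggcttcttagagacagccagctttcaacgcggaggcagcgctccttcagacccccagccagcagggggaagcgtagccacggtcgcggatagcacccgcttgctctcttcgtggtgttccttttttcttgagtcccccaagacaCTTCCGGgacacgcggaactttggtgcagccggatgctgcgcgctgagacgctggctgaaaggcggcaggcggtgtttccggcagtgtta
Sf3a1 promoter, GRCm38.p6 chr11:4160104-4160353 (+ strand): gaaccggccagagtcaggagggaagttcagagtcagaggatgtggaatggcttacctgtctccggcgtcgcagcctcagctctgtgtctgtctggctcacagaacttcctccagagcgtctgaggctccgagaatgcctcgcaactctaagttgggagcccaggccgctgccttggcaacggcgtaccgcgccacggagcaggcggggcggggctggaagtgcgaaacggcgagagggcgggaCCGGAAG
The motif starts 90 bases before the Sf3a3 start and 7 bases before the Sf3a1 start. The genes shown do not represent all genes whose probe sets above the floor on both arrays shared a direction. Of the others with an entry, Snrpb2 and Snrpg (higher) and Sf3b3 and the first start of Prpf19 (lower) held the motif. Prpf4 (higher), Prpf38b (lower) and the other start of Prpf19 lacked the motif. It was present in 6 of 7 U2 snRNP genes with an entry (7 of 8 promoters; the entry of Sf3b1 lacked these letters), 2 of 3 genes of the U1- and U2-specific proteins (Snrpb2 and Snrpc, whose measured probe sets were higher), 3 of 11 PRPF genes, 3 of 10 SR genes, 1 of 5 Sm core genes, 2 of 17 hnRNP genes and 0 of 2 U2AF genes. In all, 28.0% of the 75 member promoters held it, and 29.9% of the 67 with at least 10 CpG dinucleotides. Over all 32851 promoters of the same length 6.91% held it, and over the 12417 that were as rich in CpG, 14.4%. Such CpG-rich promoters made up 89.3% of the 75 member promoters and 37.8% of all. Among these CpG-rich promoters, the GC box GGGCGG was present in 67.2% for members and 68.9% over all, the CCAAT box in 49.3% and 33.1%, the TATA box TATAAA in 5.97% and 4.27%, and the forkhead motif TGTTTAC in 2.99% and 1.79%, each on either strand. Without the limit on CpG these shares were 61.3% and 32.7%, 48.0% and 33.8%, 6.67% and 12.4%, and 2.67% and 3.17%, in the same order. These matches describe letters in the windows, and no binding was measured.

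The PRPF genes serve different steps of the cycle and differed in direction. Prpf8, the large protein at the catalytic centre, was 1.58-fold lower in GFP-positive cells, with 523 and 825 from its only probe set. Prpf6, a bridge within the tri-snRNP, gave 773 and 1099.5 (−0.51 log2) in its brightest probe set but 419 and 349 (0.26) in 1454789_x_at. Prpf4, a U4/U6 protein, was higher in both of its probe sets, with 122 and 78.9 (0.63) and 99.3 and 89.9 (0.14). Prpf3, its partner, gave 522 and 533, and Prpf31 679 and 723. Prpf19, the ubiquitin ligase that gives a spliceosomal complex its name, was slightly lower in all 3 measured probe sets, by −0.21, −0.08 and −0.04, with 2882.5 and 2959 in the brightest. Prpf38a, Prpf38b and Prpf18 were lower in each measured probe set, from 363 and 368 (−0.02) for Prpf18 to 53.7 and 87.0 (at least 1.41-fold lower) for 1456506_at of Prpf38b. Prpf39, a U1-associated factor, gave 64.3 and 102 (−0.67), 111 and 141 (−0.35) and 101 and 93.3 (0.11). The kinase gene Prpf4b had 4 of 6 probe sets higher, with 993 and 777 in the brightest (0.35), and 2 lower, with 255 and 370 (−0.54) and 66.7 and 99.2 (−0.57). Prpf40b was at least 1.49-fold higher, with 92.2 and 52.9.

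The Sm core genes and the U1- and U2-specific proteins had small medians, 0.05 and 0.09 log2. Their measured probe sets ranged from −0.47 to 0.15 and from −0.20 to 0.38. Snrpg gave 9266 and 8854 in its brightest probe set (0.07 log2) Snrpe 5955 and 5469 (0.12) and Snrpf 656 and 600.3 (0.13). Snrpb, which encodes the SmB protein, was lower in both probe sets, with 1403 and 1783 (−0.35) and 1817 and 2064 (−0.18). Snrpd3 gave 682 and 945 (−0.47) in one probe set and 131 and 117 (0.15) in a dimmer one. Snrpn, the SmB relative of the nervous system, was below the floor in its only probe set with 1 symbol (2.9 and 8.5). The U2 protein gene Snrpa1 had 1380 and 1064 (0.38), 952 and 851 (0.16) and 387 and 445 (−0.20), while Snrpb2, also of the U2 snRNP, gave 813 and 760.1 (0.10) and 291 and 275 (0.08). Snrpc of the U1 snRNP gave 1487 and 1444 (0.04). Of the U2AF subunits, which recognise the end of the intron, U2af2 gave 754 and 617 (0.29) and U2af1 690.1 and 644 (0.10). U2af1l4, which encodes the related protein U2AF26, known in T cells for its part in CD45 splicing, was lower at 526 and 686 (−0.38). The mean over all 8 Sm core probe sets was −0.06, and without probe sets whose suffix marks possible matches to several transcripts the Sm core median was −0.16.

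Probe sets of the same gene often pointed in different directions. Of 35 member genes with at least 2 probe sets above the floor on both arrays, 23 had both higher and lower ones, 5 had only higher and 7 only lower ones. Over all 3208 such genes 55.2% were split, and the share grew with the number of probe sets: for other genes it was 44.8% with 2 probe sets, 68.7% with 3, 79.1% with 4 and 88.8% with 5 or more. For members it was 6 of 15, 6 of 8, 5 of 6 and 6 of 6. Member genes had 2.81 probe sets on average and other genes 1.92. The span between a gene's probe sets was above 1 log2 unit for 3 member genes, Hnrnpk, Hnrnpr and Sf3b6, while 13.0% of all such genes had so wide a span. The scatter of member probe sets around their gene's mean had a standard deviation of 0.33 log2 (112 probe sets of 35 genes), compared with 0.40 for other genes, and was 0.25 for SR, 0.36 for hnRNP, 0.38 for U2 snRNP and 0.38 for PRPF genes.

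**Figure D3:**
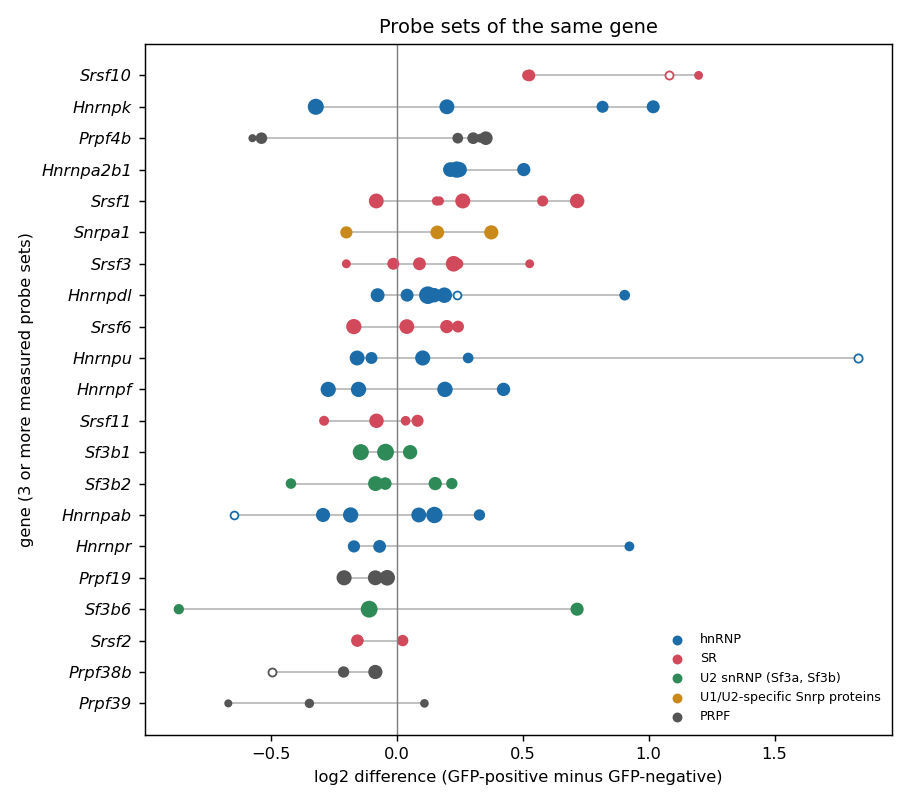
Log2 differences (horizontal axis, GFP-positive minus GFP-negative) of all measured probe sets of the 21 member genes with at least 3 of them, ordered by the gene's median. Larger points have higher mean signals, and open circles have 1 signal under the floor. Srsf10 and Hnrnpa2b1 lie wholly to the right of 0 and Prpf19 and Prpf38b wholly to the left, whereas most genes span 0.

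Probe sets designed from the same sequence also differed in direction. In 23 cases, from 18 genes, 2 or more measured probe sets had been designed from the same database sequence, and in 11 of these they lay in both directions. The matching share for other genes was not computed, so these counts do not set members apart. The median span of the 23 cases was 0.32 log2, from 0.02 for a pair of Prpf4b to at least 1.55 for that of Hnrnpu. By probe set type, medians of the measured members were 0.03 for unique sets (74), 0.10 for those that match several transcripts of the same gene (30), 0.02 for those shared among genes or transcripts (22) and −0.01 for those open to cross-matching (17). The corresponding medians over all genes ran from −0.03 to 0.03.

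Other genes of the splicing machinery were about as balanced. Of 110 genes in 8 lists, 100 had a probe set with 1 symbol, and 233 probe sets of 96 genes were measured. Of these 110 were higher and 123 lower in GFP-positive cells, with a median of −0.02 log2 that became 0.0046 after quantile normalization. At 1.5-fold 13 were higher and 19 lower, against the 10.5% and 9.08% of all measured probe sets. Mbnl2, a muscleblind regulator of alternative exons, was lower in all 3 of its probe sets, with 270 and 595 (2.21-fold), 164 and 405 (2.47-fold) and 158 and 218 (1.38-fold). The U5 protein gene Snrnp40 was 2.22-fold higher in a dim probe set (166.5 and 75) but lower in a brighter one (451 and 528), while Snrnp27 was higher in both, with 347 and 167 (2.08-fold) and 397 and 306. The helicase gene Snrnp200 was lower in both, with 1473 and 1802 (−0.29) and, with 1 signal under the floor, 37.0 and 104 (at least 1.69-fold). Gemin5, the snRNA-binding subunit of the SMN complex, gave 65.1 and 139 (2.13-fold lower) and 117 and 124.5. Gemin8 gave 135 and 77.9 and, in its other probe set, 154.2 and 154.7, and Gemin2 180 and 119.

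The remaining lists held both directions as well. Spliceosomal helicase and Prp19 complex genes were lower in 43 of 67 probe sets, with a median of −0.07, and SR protein kinases and SR-like proteins in 22 of 36, with a median of −0.06. The branch point protein gene Sf1 had probe sets from 440 and 272 (0.69) to 28.9 and 138 (at least 2.24-fold lower), with 8490 and 8808 in the brightest. Smndc1 had 270 and 140 (0.94) in one probe set and −0.15 and 0.06 in others, and Isy1 70.5 and 126 (−0.84) and 322 and 315.5. Srpk2, an SR protein kinase, lay from −0.14 to 0.20 in its 3 probe sets above the floor on both arrays, and gave 53.4 and 94.0 (at least 1.52-fold lower) and 104 and 37.0 (at least 1.69-fold higher) in the others. Son ranged from −0.71 to 0.34 and Scaf11 from −0.36 to 0.70. Ybx1 was at least 2.51-fold higher in a dim probe set (155 and 37.9) and close to equal in its bright one (7065 and 6899), and Sfpq, a paraspeckle protein, ranged from −0.94 to 0.39. Lsm genes were higher in 8 of 12 probe sets and other regulators in 43 of 81. SMN complex genes were higher in 5 of 9, exon junction complex genes in 6 of 12, snRNP proteins with Snrnp symbols in 8 of 13 and minor spliceosome genes in 2 of 3.

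**Figure D4:**
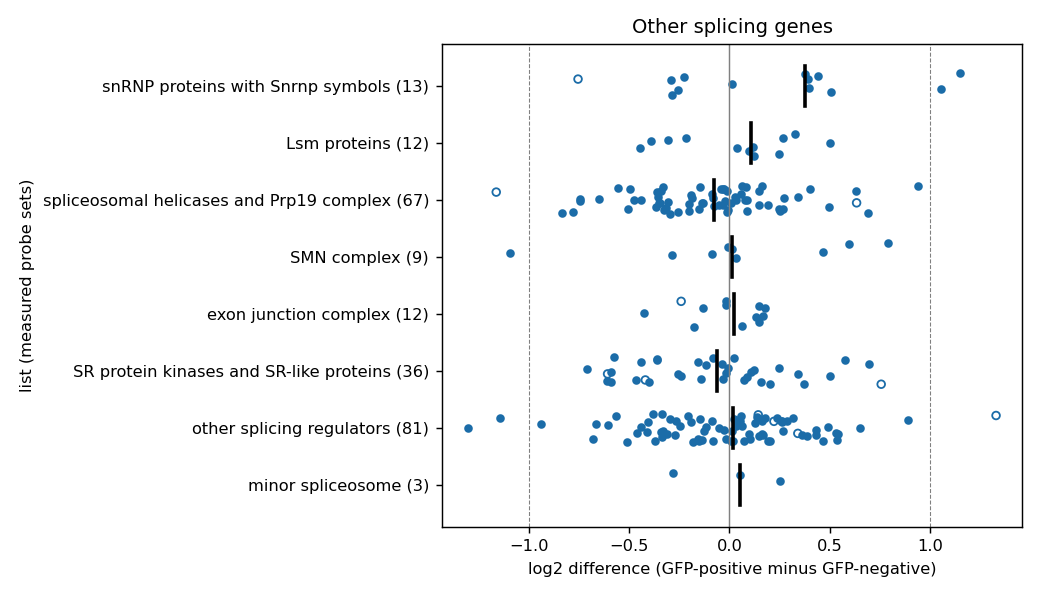
Log2 difference (horizontal axis, GFP-positive minus GFP-negative) of every measured probe set in 8 lists of other splicing genes (vertical axis, number of probe sets in brackets), with medians as black bars, 2-fold as dashed lines and open circles for lower bounds. Each list of more than 3 probe sets holds points on both sides of 0, and 7 of all 233 lie beyond 2-fold, 3 higher and 4 lower.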

How the data were processed

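RNA of the GFP-positive and GFP-negative population (6 µg each, per the labels' protocols) was hybridised to 1 Affymetrix mouse array each, and each array was grouped by its title. The authors deposited 1 intensity per probe set on a linear scale, and the submitters' processing notes name MAS5. The sources used here give no software version, background setting or detection call. The 2% trimmed mean was 150.0 on both arrays, so they had been scaled to each other, and no further scaling was applied.

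Of the 45101 probe sets, 34958 had 1 symbol, 932 several and 9211 none. The floor was the 90th percentile of both arrays' signals of 117 probe sets from 65 tissue-restricted genes (70 listed), of which 8 probe sets passed as measured. Differences, counts past 2-fold and 1.5-fold, medians and spans within genes were computed in Python 3.11.15 with pandas 2.3.3. The steps were tested on simulated data. No test, p-value or standard error is given, since each group has 1 array.

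Named genes were all members past 2-fold, the 10 largest differences per direction above the floor on both arrays, the brightest and most different genes of each family, genes spanning over 1 log2 unit, 12 genes with known roles and, of the other lists, up to 3 genes past 1.5-fold. Further members were named to account for their families, after their values were seen. Members, lists and motifs were chosen with earlier results of these data known. Gene and promoter annotation came from GEO's platform table and RefSeq (GRCm38.p6). Alternatives were a doubled floor, no floor, other entry rules, quantile normalization, loess, leaving out cross-matching probe sets, and summaries by gene.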

Additional observations from a re-analysis of the deposited data

Results flagged for a closer look

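Probe sets paired with several symbols entered no count above, and 18 of them name a splicing factor or hnRNP gene, of which 12 were above the floor on both arrays. Of the 18, 4 were above the floor in GFP-positive cells and higher there by more than the median absolute difference of the members. They were 3 of the 4 probe sets of Hnrnpa3, which are also annotated to Gm6793, and 1 of Snrpn, also annotated to Snurf. For Hnrnpa3 the signals were 3545 and 2707 (0.39 log2), 4309 and 3742 (0.20) and 1109 and 963.5 (0.20), and the fourth probe set gave 1072 and 978 (0.13). The Snrpn probe set gave 79.3 and 45.6 (at least 0.36). The rule took only probe sets that were higher, so their direction was set in advance. Lower by more than 0.20 log2 were probe sets that name Snrpn (−1.14, a bound), Snrpd1 (−0.64), U2af1l4 (−0.50) and Hnrnpa1 (−0.38 and −0.23). Signals of near-identical or overlapping genes cannot be told apart in these probe sets.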

How the results depend on the processing

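No family median changed sign under quantile normalization or loess, but some shrank. The PRPF median went from −0.08 log2 to −0.03 and −0.04, and the U2 snRNP median from −0.10 to −0.07 and −0.06. The hnRNP median went from 0.12 to 0.14 under both, and the SR median to 0.13 and 0.11. The median of all measured probe sets was −0.01 under both, and lay between −0.03 and 0.05 log2 under the settings that could move it. Counts past a fold depend on the floor and on which probe sets enter. Shares over all probe sets are given above for the main setting only, so the counts that follow have no such share beside them. With the floor doubled, 1 member was at least 2-fold higher, 6 were 1.5-fold higher and 3 lower, and 7 and 11 other splicing probe sets were 1.5-fold higher and lower. With no floor these were 11 higher and 11 lower at 2-fold, 22 and 17 at 1.5-fold, and 39 and 43 for the other splicing probe sets, with 17 member genes spanning over 1 log2 unit. Among probe sets above the floor on both arrays 2 members were 2-fold higher. Without probe sets whose suffix is _s_at or _x_at, 6 members were 1.5-fold higher, 9 genes had probe sets in both directions, 1 spanned over 1 log2 unit, and the medians were 0.23 for SR and −0.16 for Sm core proteins. The SR median was −0.0803 with the brightest probe set of each gene, and the Sm core mean −0.0629. The bounds for Hnrnpu and Srsf10 became 3.08 and 1.80 log2 with no floor. The cause was not tested. No paired analysis was possible because each group has 1 array, and leaving out a replicate was not possible for the same reason.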

Other observations

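Some probe sets of spliceosome genes are also annotated to near-identical or overlapping genes, and Snrpd1, Snrpd2 and Snrpa could be read only from these. The Sm core gene Snrpd1, shared with Gm14277, was lower in GFP-positive cells at 549.5 and 857.5 (1.56-fold), whereas Snrpd2, shared with Gm5848, gave 5986 and 5748 (0.06 log2). Snrpa of the U1 snRNP, shared with Gm21559 and Gm5161, gave 426 and 398 (0.10). Hnrnpa1 probe sets shared with its copies gave 2570 and 3009 (−0.23), 332 and 434 (−0.38) and 1253 and 1204 (0.06). A probe set of U2af1l4 that also matches Igflr1 gave 252 and 356 (−0.50), the same direction as the probe set of U2af1l4 alone. The brightest probe set of Snrpn and Snurf gave 325 and 322 (0.01), although the Snrpn probe set with 1 symbol was below the floor, and 1415896_x_at gave 45.8 and 136 (at least 2.20-fold lower).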
